A study of Mus musculus with 12 samples.

Results

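The 9 genes described here carry or metabolise the inhibitory transmitters gamma-aminobutyric acid (GABA) and glycine, and were measured by bulk RNA sequencing of mouse dorsal root ganglia (DRG). They were chosen by symbol from the 49315 genes of the table, as the transporters Slc6a5, Slc6a9, Slc6a11, Slc6a12, Slc6a13 and Slc32a1, the glutamate decarboxylases Gad1 and Gad2, and the GABA transaminase Abat. The choice was made with the difference between the genotypes known from earlier results, so that difference is given below as a description of the members. The Nf2 group comprised 6 mice carrying Postn-Cre and homozygous floxed Nf2. The DKO group comprised 6 mice that carried, in addition, homozygous floxed Fak1, the kinase gene annotated as Ptk2. Each genotype held 3 mice labelled male and 3 labelled female, all were 10 months old, and the RNA of about 8 ganglia per mouse formed 1 library. All 12 mice therefore lacked Nf2 in the Cre lineage, and no mouse with intact Nf2 was compared here. The Periostin promoter drives Cre in Schwann cells and their precursors. Whether cells outside this lineage, such as sensory neurons, kept both genes was not measured here.

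GABA and glycine are the main fast inhibitory transmitters of the spinal cord and brain. GABA is made from glutamate by the enzymes of Gad1 and Gad2, both transmitters are loaded into synaptic vesicles by the carrier of Slc32a1, and the plasma membrane carriers of the SLC6 family take them up again. Sensory neurons of the DRG release glutamate, but they carry GABA receptors, while inhibitory interneurons of the spinal cord express Gad1, Gad2, Slc32a1 and Slc6a5. The carriers encoded by Slc6a12 and Slc6a13 are known outside synapses, with Slc6a13 present in the meninges, kidney and liver.

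The total count per mouse lay between 21129191 and 41250329. Markers of the labelled tissue were abundant in every library, as 13 sensory neuron genes summed to at least 7646 CPM (counts scaled to the library total) and 10 Schwann cell genes to at least 8674 CPM. Ptk2 had 65.8 to 75.5 CPM in Nf2 mice and 46.5 to 76.0 CPM in DKO mice, so the floxed gene did not separate the genotypes by its total. Nf2 mouse 702, labelled male, had an Xist and Ddx3y level of the female mice, and the tests of sex and of its interaction with genotype are therefore given with and without this mouse. Skeletal muscle genes also varied between libraries, with a sum of 14.4 to 1129 CPM in Nf2 mice and 21.4 to 361 CPM in DKO mice. Nothing in the labels says more of the mice than their number, genotype, sex and age, and p-values measure the spread between these mice.

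Slc6a13 and Slc6a12 lie next to each other on chromosome 6 in the same orientation, with 5343 bases between them. In GENCODE M21 on GRCm38, Slc6a13 spans 121300227 to 121337733 and Slc6a12 spans 121343076 to 121365775, both on the plus strand. The 250 bases before the RefSeq start (GRCm38.p6) are shown for this pair because both genes were highest in the same mice, at chr6:121300038-121300287 for Slc6a13 and chr6:121342826-121343075 for Slc6a12. The carriers Slc6a11 and Slc32a1, which followed another pattern across the mice, are shown for comparison, at chr6:114130991-114131240 and chr2:158610508-158610757. All 4 are on the plus strand and read 5′ to 3′, and capitals mark matches to the motifs searched.
Slc6a13: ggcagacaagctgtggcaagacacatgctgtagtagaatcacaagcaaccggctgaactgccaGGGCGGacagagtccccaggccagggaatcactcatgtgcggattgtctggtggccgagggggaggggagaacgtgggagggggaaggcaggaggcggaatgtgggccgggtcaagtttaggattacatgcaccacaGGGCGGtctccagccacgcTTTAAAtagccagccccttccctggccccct
Slc6a12: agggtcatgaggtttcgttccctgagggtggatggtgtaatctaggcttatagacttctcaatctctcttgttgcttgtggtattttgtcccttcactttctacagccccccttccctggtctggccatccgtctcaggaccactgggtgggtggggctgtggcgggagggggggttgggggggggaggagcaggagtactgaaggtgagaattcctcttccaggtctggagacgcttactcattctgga
Slc6a11: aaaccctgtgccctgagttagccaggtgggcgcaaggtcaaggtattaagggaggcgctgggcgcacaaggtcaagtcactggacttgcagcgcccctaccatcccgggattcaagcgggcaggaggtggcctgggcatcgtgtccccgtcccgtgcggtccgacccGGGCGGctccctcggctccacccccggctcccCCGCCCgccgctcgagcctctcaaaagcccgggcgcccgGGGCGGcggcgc
Slc32a1: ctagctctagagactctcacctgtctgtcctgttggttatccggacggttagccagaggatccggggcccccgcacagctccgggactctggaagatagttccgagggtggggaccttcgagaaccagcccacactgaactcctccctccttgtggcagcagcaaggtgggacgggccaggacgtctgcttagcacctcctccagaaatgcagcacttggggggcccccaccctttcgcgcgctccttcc
Both strands were searched for TATAAA and its variant TTTAAA, for GGGCGG, known from Sp factor sites, for TAATTA, a homeodomain core, and for CCAAT, a set written after the sequences had been seen. TTTAAA lay 31 to 26 bases before the start of Slc6a13, where GGGCGG also matched at 2 places. Slc6a11 had 3 matches to GGGCGG or its reverse complement, and these windows of Slc6a12 and Slc32a1 had no match to any of the 5 motifs. RefSeq gives 5 starts for Slc6a12 and 3 for Slc6a13, and only the start nearest the GENCODE gene start was searched. Of 32851 RefSeq promoter windows of this length, 12.1% held TTTAAA and 32.7% held GGGCGG. GENCODE M21 places the first start of Slc6a13 61 bases upstream of the RefSeq start used here. Of the 9 genes, 8 had an entry in this promoter table and Abat had none.

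Slc6a12 and Slc6a13 had the highest mean in DKO relative to Nf2 mice, and both were highest in DKO mice 886 and 885. Slc6a12, a carrier of betaine and GABA, had a lowest, median and highest level of 0.809, 1.69 and 2.71 CPM in Nf2 mice and of 1.51, 3.31 and 10.9 CPM in DKO mice. The DKO mouse 886 had 10.9 CPM and mouse 885 had 6.26 CPM, whereas the other four DKO mice had 1.51 to 3.61 CPM and the genotypes overlapped. The edgeR log2 fold change of DKO against Nf2 was 1.43 (SE 0.42, adjusted p = 0.126 over 18295 genes). DESeq2's Wald test gave the same size with an adjusted p of 0.0157, and the adjusted p of Slc6a12 ranged from 0.0157 to 0.494 over the alternatives tried. Without DKO mouse 886 the edgeR log2 fold change was 0.98.

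Slc6a13 encodes a GABA and taurine carrier. Its lowest, median and highest level was 2.39, 8.37 and 9.94 CPM in Nf2 mice and 7.38, 13.8 and 33.2 CPM in DKO mice. Mice 886 and 885 stood above the other DKO mice, which had 7.38 to 16.2 CPM,, and Nf2 mouse 649 (2.39 CPM) stood below all others. The edgeR log2 fold change was 1.11 (SE 0.36, adjusted p = 0.163), and 0.77 without mouse 886. Every DKO mouse other than 887 exceeded every Nf2 mouse. The edgeR log2 fold change of the genes next to the pair was smaller, 0.15 (SE 0.28, adjusted p = 0.851) for Usp18, 29310 bases on the lower side of Slc6a13, and 0.29 (SE 0.18, adjusted p = 0.495) for Iqsec3, 7158 bases beyond Slc6a12.

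The GABA carrier Slc6a11, which is known from astrocytes, ranged more widely. It had a lowest, median and highest level of 0.938, 1.38 and 15.2 CPM in Nf2 mice and of 1.09, 9.20 and 31.9 CPM in DKO mice. In Nf2 mice it was high in 1049 (15.2 CPM) and 884 (12.2 CPM) and at most 1.45 CPM in the other four. In DKO mice it was high in 917 (31.9 CPM), 915 (13.6 CPM) and 914 (13.1 CPM), had 5.32 CPM in 886 and 1.09 to 1.52 CPM in the other two. High and low mice thus occurred in both genotypes, and the edgeR log2 fold change of 1.02 had an SE of 0.86 (adjusted p = 0.638). It was 0.35 without DKO mouse 917 and 1.65 without Nf2 mouse 1049.

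Of the glycine carriers, Slc6a5 marks glycinergic neurons and Slc6a9 is mainly glial. Slc6a5 (chromosome 7) had a lowest, median and highest level of 0.237, 0.652 and 13.1 CPM in Nf2 mice and of 0.304, 5.24 and 19.6 CPM in DKO mice. Its 5 highest libraries were DKO 917 (19.6 CPM), Nf2 1049 (13.1 CPM), Nf2 884 (9.36 CPM), DKO 915 (8.07 CPM) and DKO 914 (7.76 CPM). These are the 5 libraries in which Slc6a11 was highest, and the next, DKO 886, had 2.73 CPM. Over all 12 mice the highest level of Slc6a5 was 82.8 times the lowest, and 7 to 454 reads stood behind these values. The genotypes overlapped over nearly their whole range, with an edgeR log2 fold change of 0.66 (SE 1.03, adjusted p = 0.818). Without DKO mouse 917 the direction turned, to a log2 fold change of -0.073.

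Slc6a9 was far more even. It had a lowest, median and highest level of 5.59, 7.30 and 10.8 CPM in Nf2 mice and of 6.96, 10.54 and 15.2 CPM in DKO mice. The highest library was again DKO 917, and the edgeR log2 fold change was 0.40 (SE 0.20, adjusted p = 0.357). Of the 50-base windows of its annotated transcripts, 26.3% also occurred in transcripts of other genes, and which genes these were was not recorded. The genes Ccdc24, B4galt2 and Gm17114 overlap Slc6a9 on the opposite strand. Whether the authors counted by strand was not given, so part of its count could belong to these genes. The same holds for Slc32a1, where 23.7% of windows were shared and the antisense gene Gm14205 overlaps. For the other 7 members the share was at most 1.49%, the value of Gad1, which the antisense gene Gad1os overlaps.

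**Figure D1:**
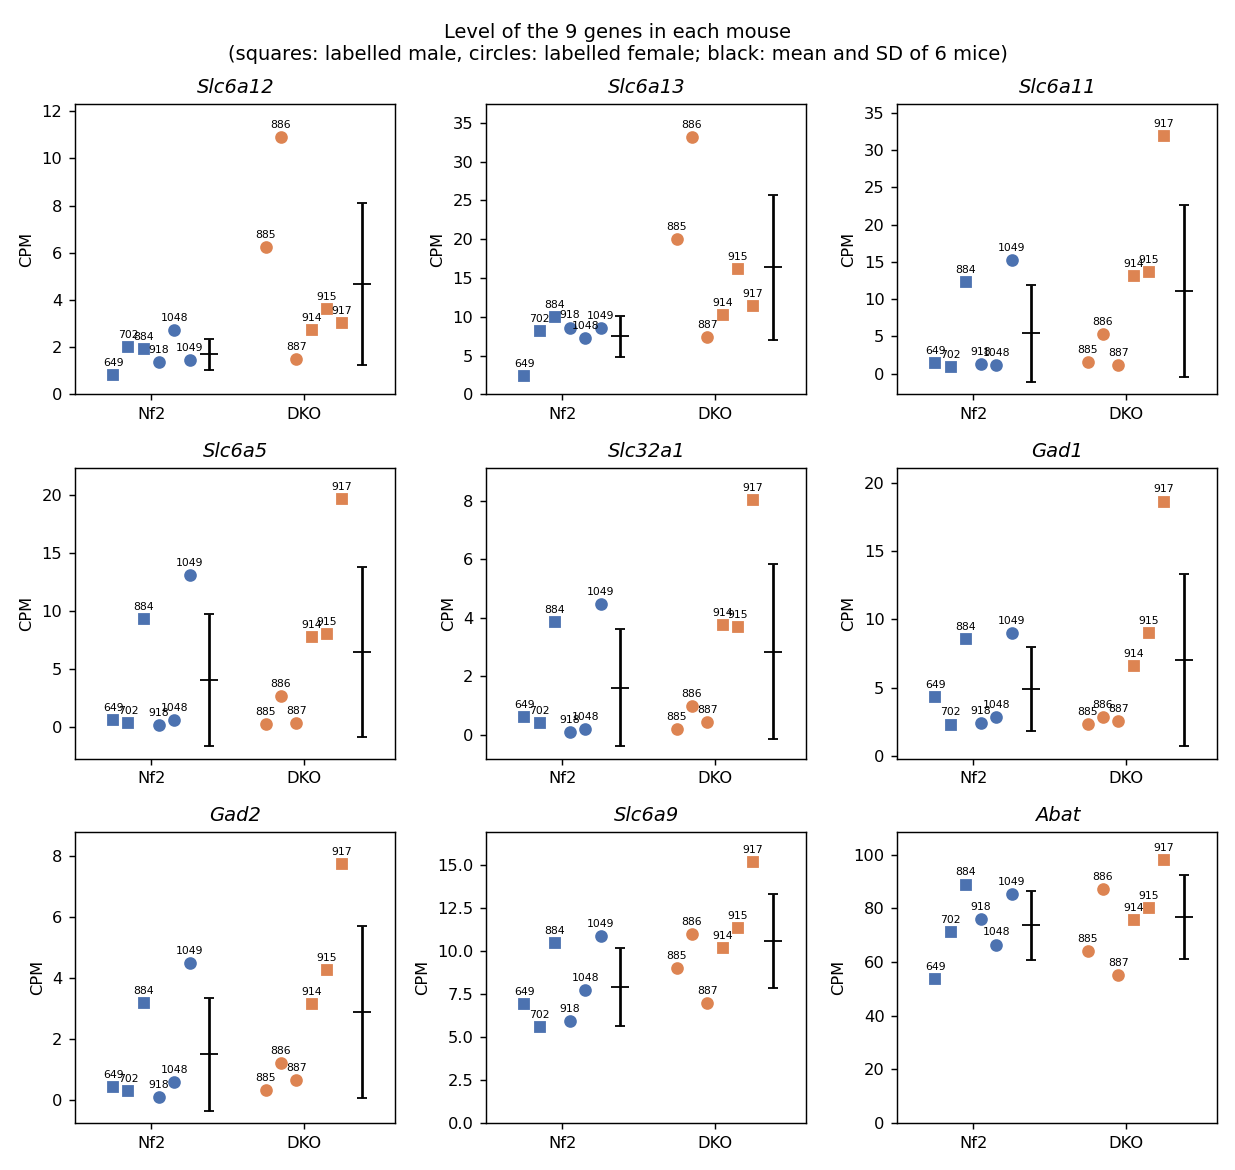
Level in CPM of each of the 9 genes in the 12 mice, by genotype, with the mouse number beside each point, squares for mice labelled male, circles for mice labelled female, and the mean with SD of 6 mice in black. Slc6a12 and Slc6a13 reach 10.9 and 33.2 CPM in DKO mouse 886, whereas Slc6a11, Slc6a5, Slc32a1, Gad1 and Gad2 are high in Nf2 mice 884 and 1049 and DKO mice 914, 915 and 917.

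The vesicular carrier Slc32a1 and the synthesis genes Gad1 and Gad2, all on chromosome 2, followed Slc6a5. Slc32a1 had a lowest, median and highest level of 0.101, 0.504 and 4.49 CPM in Nf2 mice and of 0.190, 2.33 and 8.03 CPM in DKO mice. Gad2 had 0.101, 0.506 and 4.49 CPM in Nf2 mice and 0.342, 2.19 and 7.73 CPM in DKO mice. Both had as few as 3 reads in the lowest library, so that low levels of these genes rest on counting error as well as on differences between mice. Gad1 had 2.33, 3.60 and 9.01 CPM in Nf2 mice and 2.35, 4.72 and 18.6 CPM in DKO mice. For all 3 genes, the 5 highest libraries were Nf2 mice 884 and 1049 and DKO mice 914, 915 and 917. The edgeR log2 fold change was 0.81 for Slc32a1 (SE 0.91, adjusted p = 0.735), 0.92 for Gad2 (SE 0.83, adjusted p = 0.667) and 0.49 for Gad1 (SE 0.53, adjusted p = 0.725). Leaving out DKO mouse 917 brought these to 0.18, 0.35 and -0.08.

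Abat, which breaks down GABA in mitochondria, was the most abundant member and the least variable. It had a lowest, median and highest level of 53.5, 73.7 and 88.9 CPM in Nf2 mice and of 55.1, 77.9 and 98.2 CPM in DKO mice. The highest library was 1.83 times the lowest, against 2.71 times for Slc6a9 and 8.00 to 82.8 times for the other 7. The edgeR log2 fold change of 0.04 had a 95% interval of -0.26 to 0.34 (SE 0.14, adjusted p = 0.930).

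All 9 members passed the filter on low counts, and their edgeR log2 fold changes were all positive, between 0.04 and 1.43 with a median of 0.81, beside a median of 0.00 over all tested genes. Of all 18295 tested genes, 9338 had a positive one. The members were chosen with this contrast known and 5 of them varied together (r of 0.931 or more), so their shared direction is only a description. None of the 9 passed an adjusted p of 0.05, and 2 (Slc6a12 and Slc6a13) had an unadjusted p under 0.05. Over all 18295 tested genes, 172 (0.94%) passed the adjusted threshold, 0.372% higher and 0.568% lower in DKO mice, and 2722 had an unadjusted p under 0.05. In none of the 9 did all mice of a genotype lie beyond all mice of the other, whereas this held for 1.95% of the tested genes (0.902% above and 1.04% below). In bulk tissue, more cells of a kind and more RNA per cell cannot be told apart. On the log2(CPM + 4) scale of the study, which compresses low levels, the difference of means was 0.76 for Slc6a13, 0.60 for Slc6a11, 0.53 for Slc6a12 and 0.05 to 0.37 for the other 6.

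The labelled sexes were compared because the choice of members did not use them. The DKO females were mice 885, 886 and 887, and the DKO males were mice 914, 915 and 917. Labelled sex in DKO mice therefore cannot be told apart from anything that mice of neighbouring numbers shared. In DKO mice, the 3 males lay above the 3 females for Slc6a5, Slc6a11, Slc32a1, Gad1 and Gad2. These 5 genes varied together across the mice (r of 0.931 or more), so they are not separate observations. How many of all tested genes separate the DKO sexes in this way was not counted. Slc6a5 had 7.76 to 19.6 CPM in DKO males and 0.304 to 2.73 CPM in DKO females, whereas Nf2 males had 0.375 to 9.36 CPM and Nf2 females 0.237 to 13.1 CPM. Gad1 had 6.59 to 18.6 CPM in DKO males and 2.35 to 2.85 CPM in DKO females, and 2.33 to 8.58 and 2.47 to 9.01 CPM in Nf2 males and females. Mouse 702 was the lowest Nf2 male for both, and the other two began at 0.681 CPM for Slc6a5 and 4.34 CPM for Gad1. With genotype as a covariate, the edgeR log2 difference of males against females was 1.38 (SE 1.18) for Slc6a5, 1.29 (SE 0.93) for Slc6a11, 1.57 (SE 0.96) for Slc32a1, 1.10 (SE 0.49) for Gad1 and 1.16 (SE 0.90) for Gad2. It was 0.18 for Slc6a9, 0.10 for Abat, -0.63 for Slc6a12 and -0.47 for Slc6a13. None of the 9 passed, with an adjusted p of 1.00 each, and Gad1 alone had an unadjusted p under 0.05. Over all genes 0.0164% passed and 533 had an unadjusted p under 0.05. Without mouse 702 the difference was 1.91 for Slc6a5, 1.73 for Slc6a11, 2.00 for Slc32a1, 1.38 for Gad1 and 1.57 for Gad2. Without Nf2 mouse 1049, a female, it was 3.24, 2.51, 3.34, 1.59 and 2.45 in the same order, and none of the 9 passed in either fit. The values without mouse 1049 were the largest with any 1 mouse left out. The smallest were 0.90 for Slc6a5, 1.18 for Slc32a1 and 0.78 for Gad2, all without DKO mouse 885. For Slc6a11 the smallest was 0.90 without DKO mouse 887, and for Gad1 it was 0.76 without DKO mouse 917.

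Whether the genotype difference depended on sex was tested as an interaction. Its log2 size, positive where DKO exceeded Nf2 more in males, was 3.71 for Slc6a5 (SE 1.95), 3.16 for Slc32a1 (SE 1.65), 3.09 for Slc6a11 (SE 1.54), 3.07 for Gad2 (SE 1.52) and 1.98 for Gad1 (SE 0.80). It was 0.48 for Slc6a9, 0.34 for Abat, -0.48 for Slc6a13 and -0.83 for Slc6a12. None of the 9 passed in the edgeR fit (smallest adjusted p = 0.920), where 0.0109% of all genes did, and Gad1 alone was among the 874 genes with an unadjusted p under 0.05. In males alone, mouse 702 included, all 9 log2 fold changes were positive (0.20 to 1.94). In females alone, Slc6a5 (-2.00), Slc32a1 (-1.57), Gad2 (-1.19), Slc6a11 (-1.15), Gad1 (-0.87) and Abat (-0.15) were negative. Without mouse 702 the interaction was 3.18 for Slc6a5, 2.71 for Slc32a1, 2.61 for Slc6a11 and Gad2 and 1.63 for Gad1, and none passed. The interaction of Slc6a5 rested on single libraries, as it was 0.29 without Nf2 mouse 1049 and 6.42 without Nf2 mouse 884. Without mouse 1049 it was -0.26 for Slc32a1, 0.76 for Gad2, 0.87 for Slc6a11 and 1.15 for Gad1.

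Likeness between genes was described by the Pearson correlation of log2 levels over the 12 mice after the genotype means had been removed. The points share libraries and are a description without a test. Slc6a5, Slc6a11, Slc32a1, Gad1 and Gad2 formed 10 pairs with r between 0.931 and 0.992 (median 0.971), and no pair fell below 0.920 when any 1 mouse was left out. Slc6a9 had r of 0.858 to 0.915 with these 5 genes, although its range was far smaller. Slc6a12 and Slc6a13 had r = 0.856 with each other, and r of -0.290 to 0.139 with the same 5 genes. Abat lay between, with r of 0.359 with Slc6a12, 0.603 with Slc6a13 and 0.792 with Slc6a11. The 5 genes and the pair of Slc6a12 and Slc6a13 thus peaked in different libraries, and Abat followed neither as closely as their genes followed each other.

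**Figure D2:**
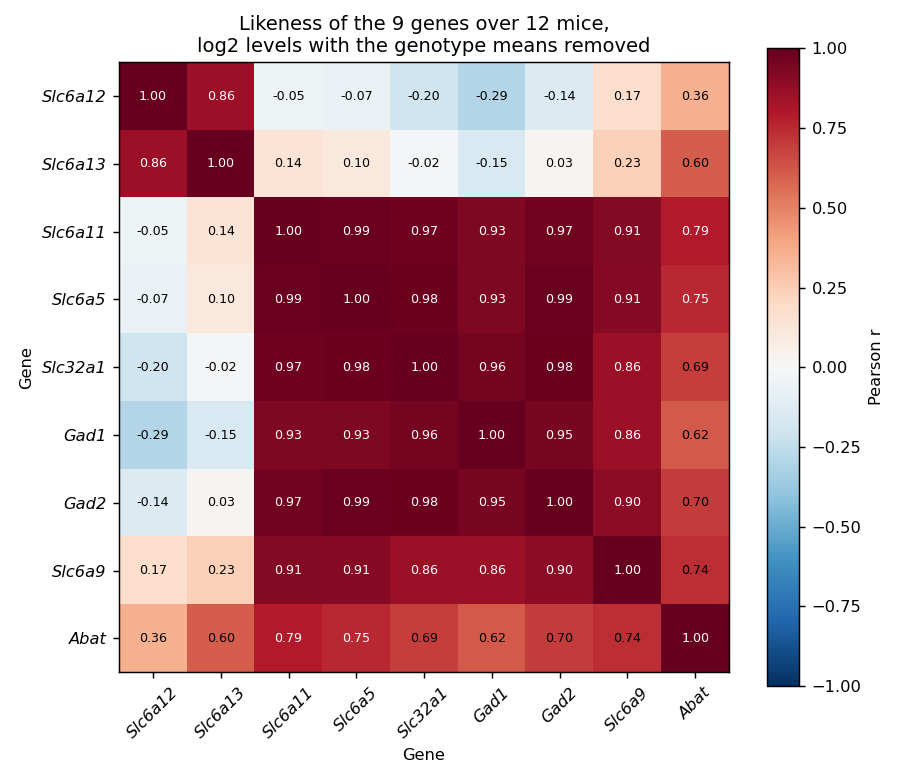
Pearson correlation between the 9 genes over 12 mice, from log2 levels with the mean of each genotype removed, as a colour and a printed value for each pair. One block of high values joins Slc6a11, Slc6a5, Slc32a1, Gad1, Gad2 and Slc6a9, and a separate one joins Slc6a12 and Slc6a13 (r = 0.856).

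The genes most like each member were then sought among all tested genes with a mean of at least 1 CPM. For Slc6a5, Slc32a1 and Gad2, other members were among the 3 closest, together with Slc12a5, the chloride extruder of central neurons (r = 0.993 with Slc6a5). Slc12a5 had 1.99 to 22.7 CPM in Nf2 mice and 2.77 to 47.2 CPM in DKO mice. For Slc6a11 the closest genes besides Slc6a5 were the serotonin receptor Htr2c (r = 0.989) and Slc12a5 (r = 0.987). For Gad1 they were Camkv (r = 0.969), the amino acid carrier Slc7a10 (r = 0.963) and the oligodendrocyte factor Olig1 (r = 0.961). For Slc6a9 they included Efnb3 (r = 0.946) and Htr2c (r = 0.942). The genes closest to Slc6a13 were Foxc1, a transcription factor of the meninges (r = 0.978), Itih2 (r = 0.977) and Cxadr (r = 0.972). For Slc6a12 they were the potassium channel Kcnj13 (r = 0.976), Sh3bp4 (r = 0.950) and Serinc1 (r = 0.943). For Abat they were Phyhip (r = 0.976), Utp4 (r = 0.963) and the calcium channel Itpr1 (r = 0.958).

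Marker lists of cells that can be dissected with the ganglion were set beside the members. The 19 meningeal genes summed to 77.3 to 320.4 CPM in Nf2 mice and to 175 to 1635 CPM in DKO mice, highest in DKO mouse 886 (1635 CPM) and lowest in Nf2 mouse 649 (77.3 CPM). All 19 were tested, all had a positive edgeR log2 fold change (median 0.96) and none passed an adjusted p of 0.05 (smallest 0.0792). Of all 18295 tested genes, 9338 were positive. Their median r was 0.851 with Slc6a13 and 0.854 with Slc6a12, against 0.168 with Slc6a5 and 0.00 over all other tested genes with either carrier. With Abat it was 0.598. Ptgds, the most abundant gene of the list and the prostaglandin D synthase, had 28.5 to 208 CPM in Nf2 mice and 88.4 to 1308 CPM in DKO mice. Zic1 was the next, with 4.94 to 21.3 CPM in Nf2 mice and 11.1 to 37.9 CPM in DKO mice. No gene of this list was at 0 in all mice, and its part in the values of Slc6a12 and Slc6a13 was not tested.

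Gene by gene, most astrocyte and oligodendrocyte markers varied more closely with the other pattern, and markers of spinal cord neurons only in part. The 10 astrocyte genes summed to 116 to 251 CPM in Nf2 mice and 161 to 394 CPM in DKO mice, with a median r of 0.896 with Slc6a5 (10 of 10 positive). Their sum was higher in DKO 886 (262 CPM) than in Nf2 884 (251 CPM) and Nf2 1049 (233 CPM). The 9 tested of 10 oligodendrocyte genes had r of -0.0749 to 0.957 with Slc6a5 (median 0.900), and the list summed to 305 to 427 CPM in Nf2 mice and 309 to 409 CPM in DKO mice. The sum of that list was carried by Aspa and Mag, which other glia of the ganglion also express, and it did not follow Slc6a5. It was 413 CPM in Nf2 918, the lowest library for Slc6a5, and 409 CPM in DKO 917, the highest. Among genes named after their values were seen, Opalin, a myelin gene of oligodendrocytes, had 0.92 CPM in Nf2 884, 0.82 CPM in Nf2 1049 and 0.41 to 1.30 CPM in DKO 914, 915 and 917, and at most 0.14 CPM in the other 7 libraries. Of 14 spinal cord neuron genes, 6 were tested, with r of -0.507 to 0.971 with Slc6a5 (median 0.570), and 8 stayed below 1 CPM in every mouse, among them Chat, Mnx1 and Slc18a3 of motor neurons. That list summed to 10.8 to 18.9 CPM in Nf2 mice and 10.4 to 22.1 CPM in DKO mice, and DKO 914 (13.2 CPM) lay below Nf2 918 and 1048 (both 14.0 CPM), so this sum did not follow Slc6a5. Its most abundant genes were Gbx1, highest in DKO 885 (8.16 CPM), and Slc5a7. With Abat the median r was 0.790 for astrocyte, 0.751 for oligodendrocyte and 0.514 for spinal cord neuron genes. None of these 3 lists had a gene past the threshold between the genotypes, and their part in the levels of the members was not tested.

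**Figure D3:**
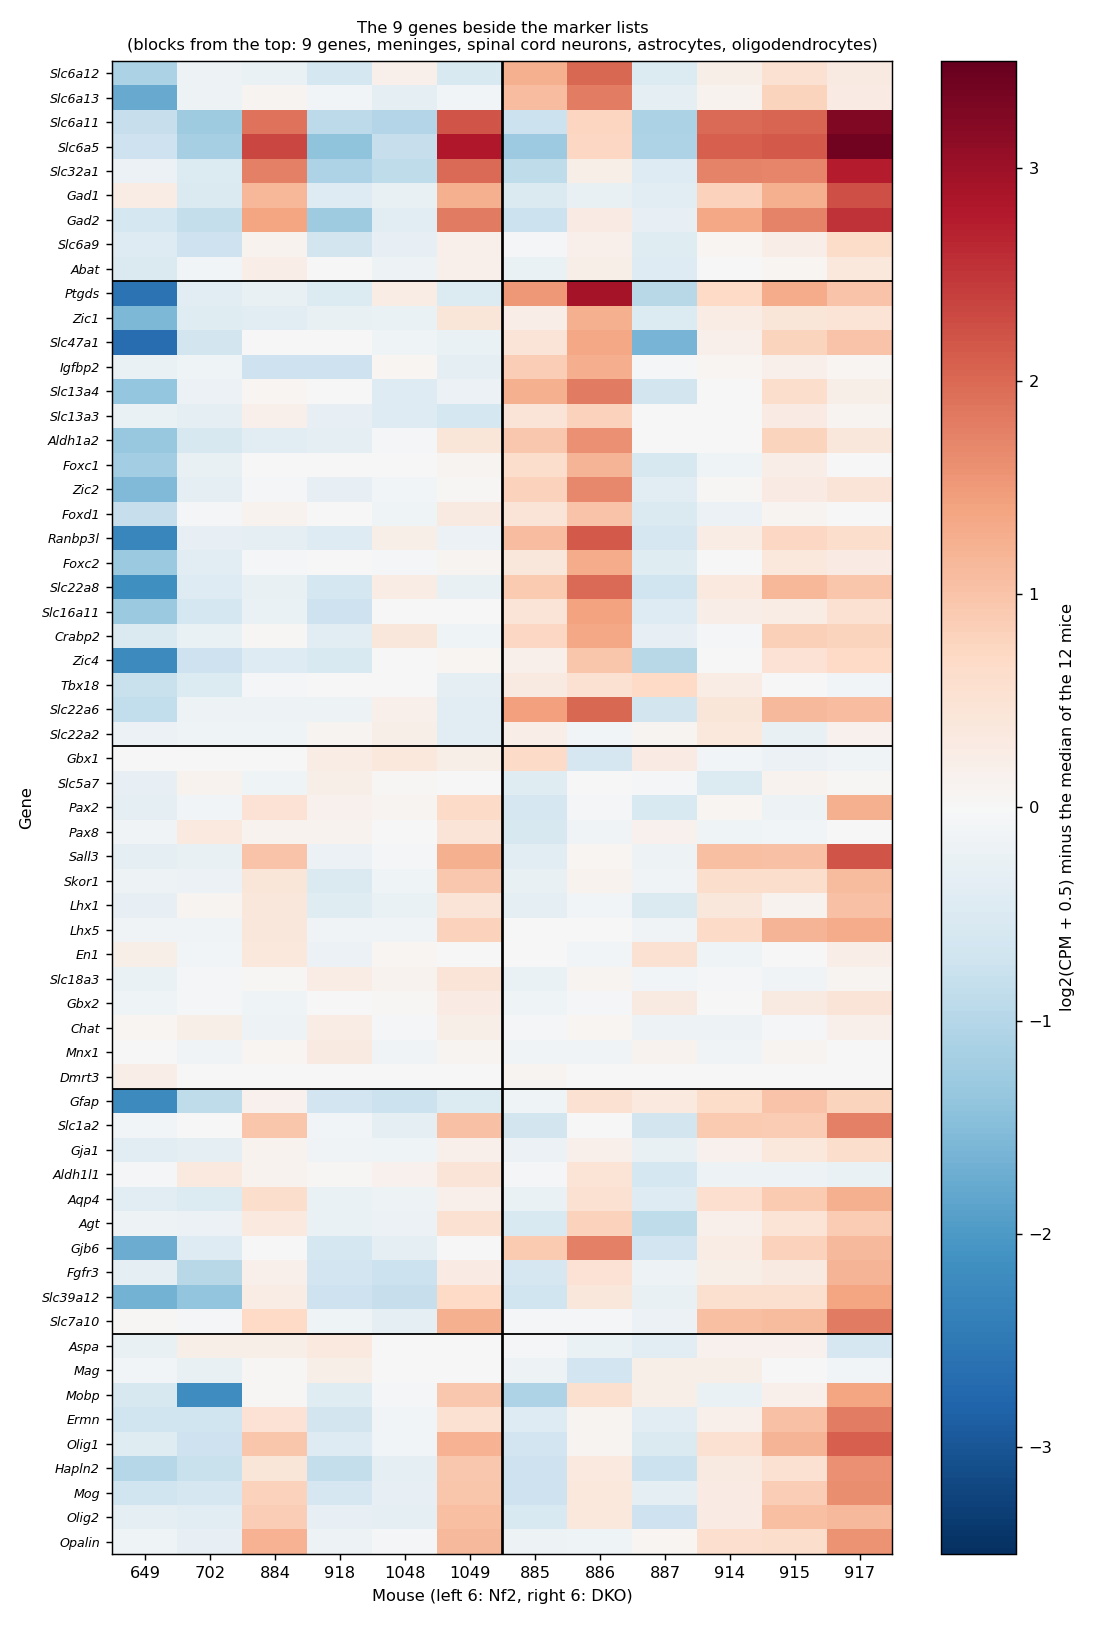
Level of the 9 genes and of the reported genes of the meningeal, spinal cord neuron, astrocyte and oligodendrocyte lists in the 12 mice, as log2(CPM + 0.5) minus the median of all mice. Most meningeal genes are highest in DKO mouse 886, as are Slc6a12 and Slc6a13, and genes such as Sall3, Slc1a2, Mog and Opalin are high in the libraries where Slc6a5 and Slc6a11 are, while others such as Gbx1 and Aspa are not.

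The other lists differed in how closely they followed the members. The 10 erythroid genes had a median r of 0.883 with Abat, 0.711 with Slc6a5 and 0.341 with Slc6a12, and summed to 38.3 to 590 CPM in Nf2 mice and to 61.9 to 819 CPM in DKO mice. Skeletal muscle genes (11) had a median r of 0.402 with Slc6a5 and -0.139 with Slc6a12, and mural cell genes (8) one of -0.03 and 0.126. Satellite glia genes (8) had a median r of 0.226 with Slc6a5 and -0.364 with Slc6a12, sensory neuron genes (13) one of -0.287 and -0.138, and Schwann cell genes (10) one of -0.163 and -0.469. With Slc6a13 the median r was 0.587 for erythroid, 0.097 for muscle and 0.157 for mural cell genes. It was -0.275 for satellite glia, -0.431 for sensory neuron and -0.343 for Schwann cell genes. With Abat it was 0.348 for muscle, -0.060 for mural cell, 0.019 for satellite glia, -0.665 for sensory neuron and -0.223 for Schwann cell genes. None of these 6 lists had a gene past the threshold between the genotypes. All 11 muscle genes nevertheless had a negative edgeR log2 fold change (median -2.09), and all 10 erythroid genes had a positive one (median 0.70). Of all 18295 tested genes, 8957 were negative and 9338 positive. The remaining lists of this paragraph held both directions.

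The other genes of GABA and glycine handling, a list of 25, gave the setting of the members. Of these, 24 were tested and none passed an adjusted p of 0.05 in either direction, with a median edgeR log2 fold change of 0.07 and a range of -0.16 to 0.89. The most abundant was the glutamine carrier Slc38a2, with 277 to 363 CPM in Nf2 mice and 297 to 524 CPM in DKO mice. Named after its values were seen, the GABA shunt enzyme Aldh5a1, which acts after Abat, had an edgeR log2 fold change of 0.08 (SE 0.14, adjusted p = 0.826). Slc12a5 had one of 0.89 (SE 0.79, adjusted p = 0.657), while the chloride importer Slc12a2, which sensory neurons keep in the adult, had 262 to 302 CPM in all 12 mice.

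Of the 27 receptor genes, 20 were tested and 2 passed, both higher in DKO mice, beside the 0.372% of all tested genes that passed in this direction. Gabra3, a subunit of the GABA-A receptor, had 19.1 to 35.6 CPM in Nf2 mice and 51.9 to 109.6 CPM in DKO mice without overlap (edgeR log2 fold change 1.32, SE 0.19). Gabrq, another subunit, had 0.183 to 0.374 CPM in Nf2 mice and 0.663 to 2.77 CPM in DKO mice (log2 fold change 2.56, SE 0.35). The most abundant receptor genes were Gabbr1 (324 to 428 CPM) and Gabbr2 (134 to 178 CPM), the subunits of the GABA-B receptor, with a log2 fold change of 0.06 and 0.11. Glra1, the glycine receptor subunit of the spinal cord, was named after its values were seen, and had 3.07 and 3.29 CPM in Nf2 884 and 1049, 1.82 to 5.87 CPM in DKO 914, 915 and 917, and at most 0.81 CPM in the other 7 libraries. The receptor list as a whole followed Slc6a5 less closely, with r of -0.177 to 0.95 (median 0.39, 15 of 20 positive). Gabra6 had no read in any mouse.

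**Figure D4:**
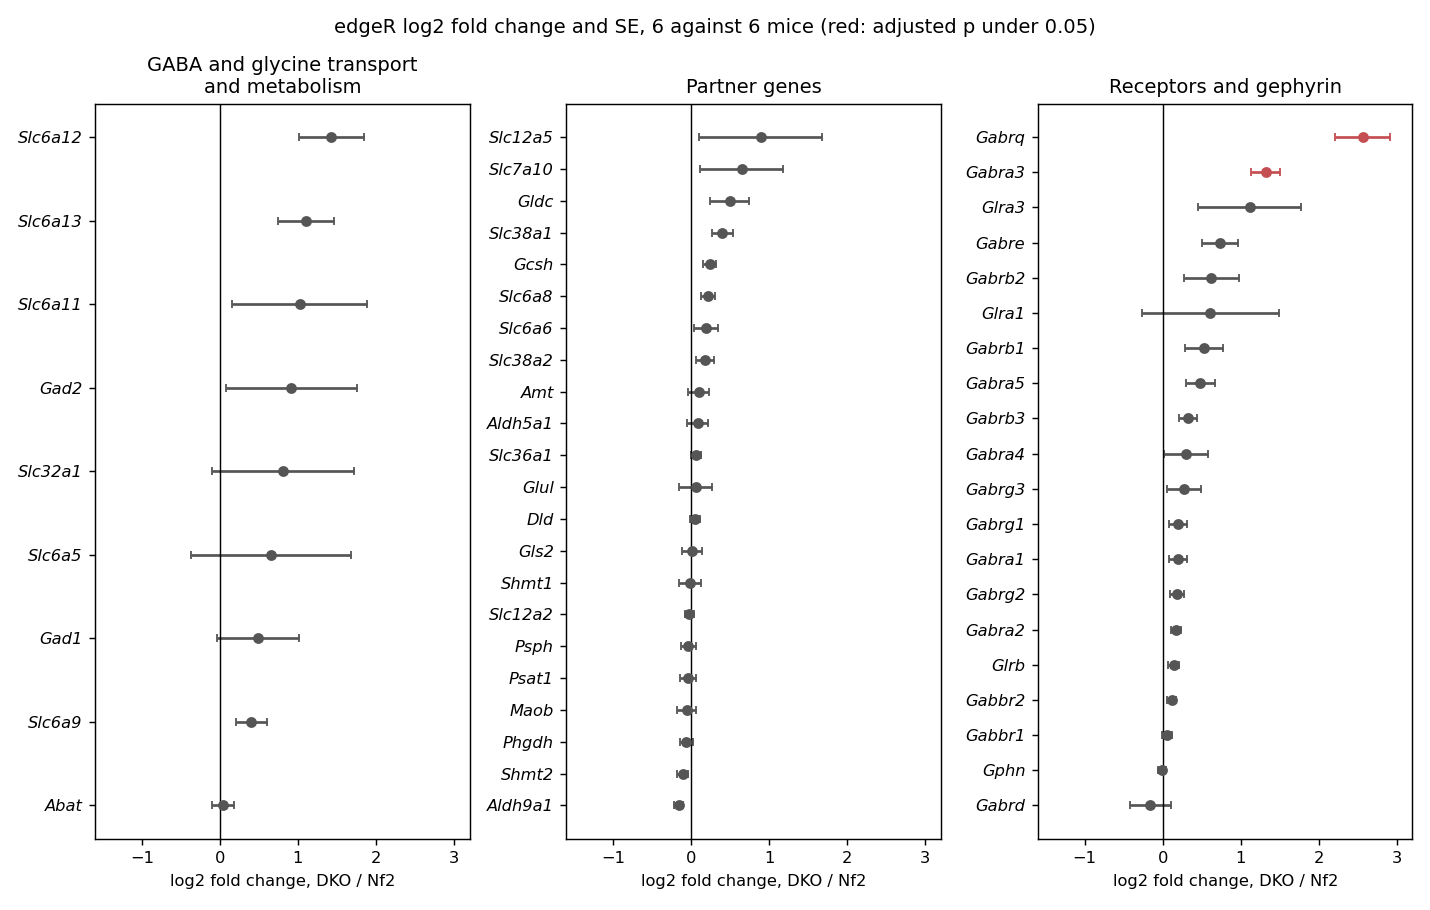
edgeR log2 fold change of DKO against Nf2 mice with its SE (6 against 6 mice) for the 9 genes and for the tested partner and receptor genes reported here, with adjusted p under 0.05 in red. The members lie between 0.04 and 1.43 and none is red, whereas Gabra3 (1.32) and Gabrq (2.56) are.

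Levels of different genes were set beside each other per kilobase of annotated exon. Abat had a mean of 9.70 ± 1.78 CPM per kb (SD, n = 12), Slc6a13 had 4.11 ± 2.77 and Slc6a9 had 1.80 ± 0.539. Abat exceeded Slc6a13 in 11 of 12 mice, and Slc6a13 exceeded Slc6a9 in 11 of 12 mice. Below these came Slc6a11 (1.63 ± 1.87 CPM per kb), Slc6a12 (1.05 ± 0.924), Slc32a1 (0.796 ± 0.899), Gad1 (0.781 ± 0.634), Slc6a5 (0.732 ± 0.882) and Gad2 (0.375 ± 0.405). In this lower part of the order the genes next to each other did not differ beyond their spread, as the higher one led in only 5 to 7 of 12 mice, and in 9 of 12 for Slc6a5 over Gad2. Slc6a9 likewise led Slc6a11 in 7 of 12 mice, since Slc6a11 exceeded it in the libraries where Slc6a5 was high.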

How the data were processed

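Bulk RNA-seq of the DRG of 12 mice (6 Nf2, 6 DKO) was analysed. The authors deposited unnormalized counts of reads, as whole numbers for each Ensembl gene in every mouse. The submitters' processing notes name GRCm38, Trimmomatic 0.36, STAR 2.5.2b and featureCounts from Subread 1.5.2. Strand and the treatment of reads with several matches are not given in the sources used here, and overlapping genes could share reads. Of 49315 genes, 174 had no symbol, and 99.5% of the identifiers were in GENCODE M21, from which coordinates and exon lengths were taken. CPM were computed from library totals, which set the counting precision.

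In R 4.3.3 with edgeR 4.0.16, genes were filtered by filterByExpr with genotype as the group, libraries were scaled by TMM, and genotypes were compared by the quasi-likelihood F test without covariates. Benjamini-Hochberg adjusted p-values cover all 18295 genes, and calls were made at 0.05. Labelled sex was fitted beside genotype, and its interaction with genotype in a further model. Likeness used log2(TMM-scaled CPM + 0.5). The script was tested on simulated data. Alternatives comprised other scaling factors and filters, DESeq2 1.42.0, limma 3.58.1 (voom), sex as a covariate, each sex alone, other pseudocounts, and each mouse left out. No 2 libraries agreed within sampling noise. Figures were drawn in Python 3.11.15 with matplotlib 3.10.9.

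The members and the lists were chosen with earlier results of these data known. The text names the 9 members, from each list up to 4 genes past the threshold and the 2 most abundant where that list is described, the 3 genes most like each member (no Gm or Rik symbols), and the protein-coding neighbours of Slc6a12 and Slc6a13. Genes described as named after their values were seen fall outside this rule, and a few genes within it are not reported here.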

Additional observations from a re-analysis of the deposited data

Results flagged for a closer look

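The following values lay far from the other 5 mice of their genotype, by the gap to the nearest mouse relative to the range of the group. Among 42 groups searched, about 2.1 are expected to pass by chance. Slc6a13 in Nf2 mouse 649 had 2.675 on the log2(CPM + 4) scale, below the nearest Nf2 mouse at 3.493. The summed meningeal list was 6.344 in the same mouse, below the nearest at 7.844, and the summed satellite glia list was 12.73, above the nearest at 12.33. The summed erythroid list was 6.041 in DKO mouse 887, below the nearest DKO mouse at 8.600. Without mouse 649 the genotype difference of Slc6a13 kept its direction, and the part of that mouse in the level of the list and the gene was not tested.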

How the results depend on the processing

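None of the 9 genes passed an adjusted p of 0.05 in the edgeR genotype comparison under the other scaling factors, the other filters, sex as a covariate, either sex alone or any mouse left out, nor with limma voom, whereas DESeq2 called 1, Slc6a12 (log2 fold change 1.43, adjusted p = 0.0157). With sex as a covariate the genotype log2 fold change was 0.012 for Slc6a5, 0.22 for Slc32a1, 0.17 for Gad1, 0.48 for Slc6a11 and 0.47 for Gad2. That fit counted mouse 702 as male by its label and was not repeated without it. Over all genes, edgeR called 172 genes, DESeq2 829, limma voom 521, edgeR in males alone 2 and in females alone 57, and 81 to 217 with 1 mouse left out. It called 114 without Nf2 mouse 702, 111 without 884, 98 without 1049 and 81 without 918, and 95 without DKO mouse 885, 109 without 914 and 87 without 917. Sex calls over all genes were 3, and 0 to 10 with 1 mouse left out (10 without mouse 702), and interaction calls were 2, and 2 to 6 (4 without Nf2 mouse 884, 5 without DKO 886, 6 without DKO 914). None of the 9 genes was called for sex or the interaction in any of these fits. Directions turned in females alone for Slc6a5 (-2.00), Slc6a11 (-1.15), Slc32a1 (-1.57), Gad1 (-0.87), Gad2 (-1.19) and Abat (-0.15), without DKO mouse 917 for Slc6a5 (-0.073), Gad1 (-0.083) and Abat (-0.042), and for Abat also with voom (-0.050), without Nf2 mouse 649 (-0.037) and without DKO mouse 886 (-0.0026). The interaction turned for Slc6a13 without DKO mouse 886 (0.081) and for Slc32a1 without Nf2 mouse 1049 (-0.26). With 1 mouse left out, the genotype difference reached at most 1.48 for Slc6a5, 0.74 for Gad1 and 0.10 for Abat, and the interaction was -0.86 at its lowest for Slc6a13 and 4.85 at its highest for Slc32a1. With a pseudocount of 1 or 0.5 the difference of Slc6a12 was 0.91 or 1.05, and with 0.5 that of Gad2 was 0.80, since a pseudocount of 4 compresses low levels. Per kb of the longest transcript, Slc6a9 had 2.66, Gad1 1.66 and Abat 16.2 CPM. Spearman's rho was 0.972 for Slc6a5 with Slc32a1 and 0.909 for Gad1 with Gad2. Beyond the constructions named, the cause of these changes was not tested. No paired analysis was possible because the mice of the genotypes share no replicate number. Depth limits Slc32a1 and Gad2 most, with as few as 3 reads in a library.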
